A study of Homo sapiens with 6 samples.

Results

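The nuclear-encoded subunits of oxidative phosphorylation were described in RPE1, an immortalised human retinal pigment epithelial cell line, after p53 activation. Members are the protein-coding genes whose symbols begin with NDUFA, NDUFB, NDUFC, NDUFS or NDUFV and a number, with UQCR, with COX4 to COX8 or with ATP5, together with SDHA to SDHD, at a mean of at least 0.5 RPKM (reads scaled to gene length and library size) over the 6 libraries. Of 57773 gene IDs, 89 protein-coding genes had such a symbol and 80 reached the minimum: 36 of complex I, 4 of complex II, 9 of complex III, 11 of complex IV and 20 of complex V. Of the 80, 76 are subunits or their isoforms and bound regulators, 2 are readthrough genes that join a subunit to its neighbour (NDUFC2-KCTD14 and ATP5MF-PTCD1), and 2 are intronless copies (UQCRHL and ATP5MGL).

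RPE1 cells received 2.5 µM Nutlin-3 or its solvent DMSO for 24 h, with 3 poly(A) RNA libraries in each group and no other agent or allele named for either. Nutlin-3 blocks the binding of MDM2 to p53 and so stabilises p53. The study sought p53 target genes. The labels give no culture of origin for the replicates, so the spread behind every p-value may be technical.

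Oxidative phosphorylation takes electrons from NADH through complex I and from succinate through complex II, passes them by ubiquinone to complex III and by cytochrome c to complex IV, and uses the proton gradient built on the way to make ATP at complex V. Most subunits are encoded in the nucleus, made in the cytosol and imported, while the mitochondrial genome encodes core proteins of every complex except complex II. Many nuclear subunit genes have promoters with sites for NRF1, for the ETS factor GABP or for YY1.

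The promoters of 3 members are shown because these genes stand for the directions described below: UQCR11 and COX5B were higher with Nutlin-3 and SDHA was lower. Each sequence is the 120 bases before the transcription start in RefSeq (GRCh38.p14), read 5′ to 3′ on the strand of the gene, and capitals mark matches on either strand to the NRF1 core (GCGC, then any base, then TGCGC) or the ETS core CCGGAAG. The regions are chr19:1605463-1605582 on the minus strand for UQCR11, chr2:97645942-97646061 on the plus strand for COX5B and chr5:218200-218319 on the plus strand for SDHA.
UQCR11: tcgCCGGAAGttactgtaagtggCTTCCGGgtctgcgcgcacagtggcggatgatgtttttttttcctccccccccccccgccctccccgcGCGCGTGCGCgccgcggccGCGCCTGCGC
COX5B: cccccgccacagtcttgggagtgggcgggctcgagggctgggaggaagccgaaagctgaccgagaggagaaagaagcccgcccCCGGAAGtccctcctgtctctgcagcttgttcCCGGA
SDHA: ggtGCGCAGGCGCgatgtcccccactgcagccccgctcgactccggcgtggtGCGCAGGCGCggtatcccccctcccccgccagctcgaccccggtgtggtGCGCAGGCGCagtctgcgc
UQCR11 holds matches to both cores, COX5B matches to the ETS core, the last of which runs past the start, and SDHA matches to the NRF1 core. Of the 80 members, 64 had a promoter in the RefSeq table. In a window of 300 bases, from 250 before to 50 after the start, 23.4% of these 64 held the NRF1 core, 31.2% the ETS core and 23.4% the YY1 core AANATGGCG, all searched on both strands with overlapping matches kept. Among all 27305 promoters of the table the shares were 6.28%, 10.7% and 3.37%, and among the 6807 promoters of genes tested here they were 13.4%, 22.4% and 7.83%. None of the 64 held 2 p53 half-sites of the consensus within 13 bases of each other, against 0.0293% of all promoters and 0.0147% of those of genes tested. So rare a match makes a count of 0 among 64 uninformative. Of 21 members that rose, 12 (57.1%) held at least 1 of the 3 cores, and of 41 that were not called, 24 (58.5%) did. The NRF1 core stood in 0 of 10 promoters of complex IV and in 4 of 7 of complex III. A match describes letters in this window and does not show binding.

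As a group, the members moved little. After Nutlin-3, 28 of 80 passed the test upward (35.0%), 2 downward (2.50%), and 50 did not pass, by limma over all 12212 genes tested with Benjamini-Hochberg adjustment. Among all genes tested 51.6% passed: 29.1% rose and 22.5% fell. Without the readthrough genes and intronless copies, 27 of 76 members rose (35.5%) and 2 fell. By limma voom on recovered reads 36 members rose and 4 fell, beside 25.9% and 24.3% of the genes in that fit. The falls numbered 1 without DMSO replicate 2, 3 without DMSO replicate 3 and 0 without Nutlin-3 replicate 1 or 2. The median log2 fold change of the members was 0.09, beside 0.02 for all genes tested, and 64 of the 80 were above 0. Their log2 fold changes ran from -0.17 to 0.31, and 8 of 80 (10.0%) lay beyond 1.2-fold on this scale, all of them higher, beside 30.8% of all genes tested. In 38 members every Nutlin-3 library was above every DMSO library and in 3 every one was below, beside 34.4% and 27.4% of all genes tested. In bulk RNA, fewer cells of a kind and less RNA per cell cannot be told apart.

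**Figure D1:**
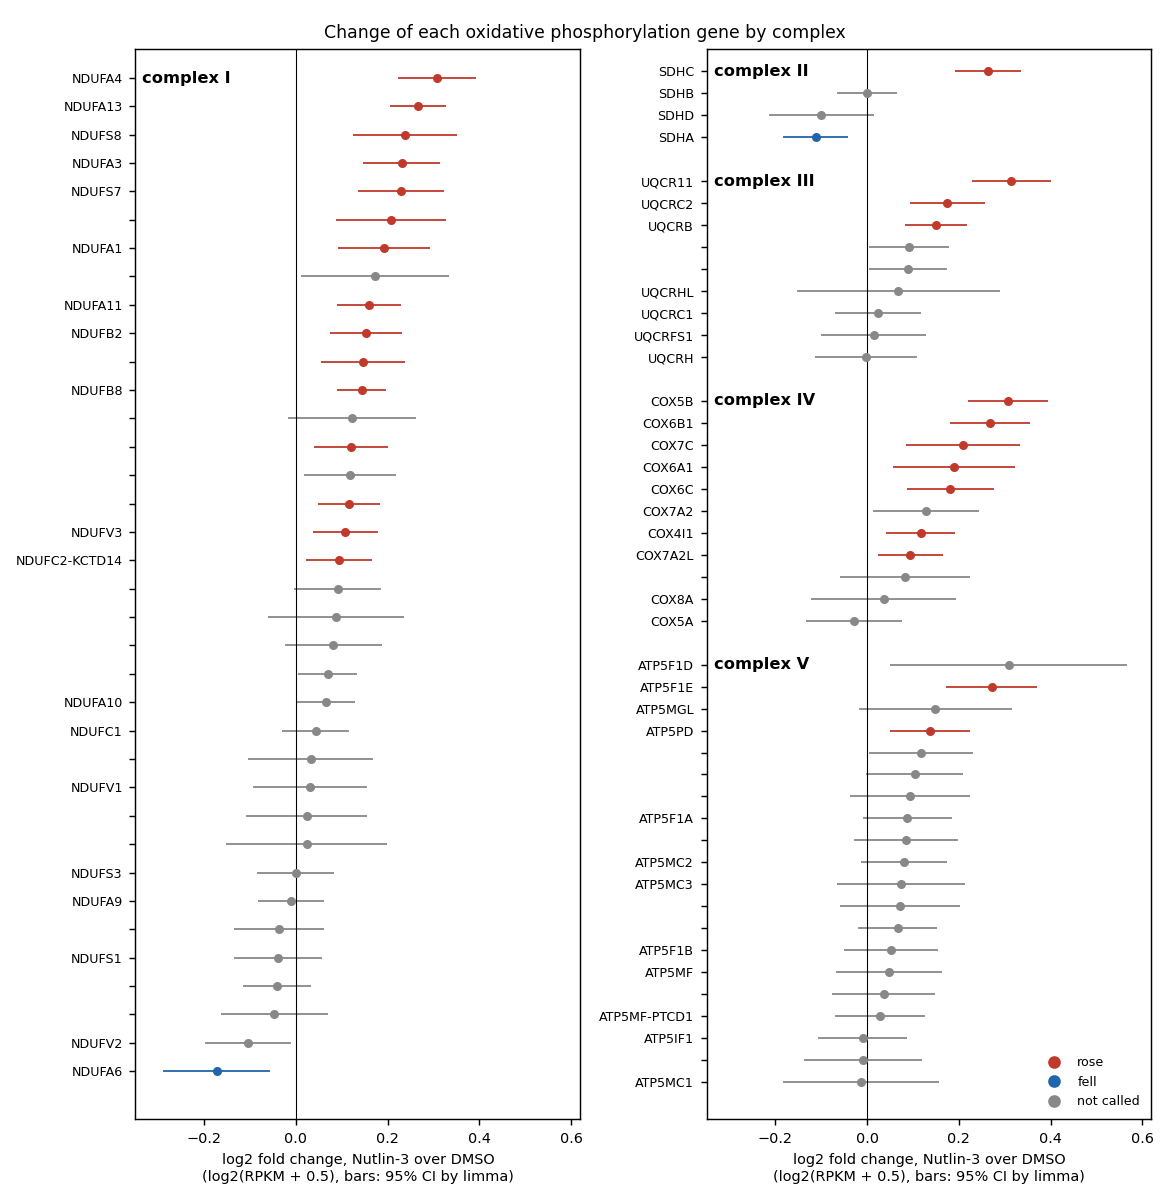
Log2 fold change of each of the 80 members, Nutlin-3 over DMSO (x axis, on log2(RPKM + 0.5)), with 95% confidence intervals by limma, for complex I (left) and complexes II to V (right). Members described in the text are named; red points rose, blue points fell and grey points were not called, and all lie between -0.17 and 0.31.

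The DMSO libraries were not level over the members. Each member was set to its mean over the DMSO libraries on the log2(RPKM + 0.5) scale and averaged over the 80 members. DMSO replicates 1, 2 and 3 then stood at 0.05, -0.03 and -0.02, and Nutlin-3 replicates 1, 2 and 3 at 0.07, 0.09 and 0.12. DMSO replicate 1 was the highest of the DMSO libraries in 67 of 80 members, and the groups did not overlap in this average. The same average over all 12212 genes was 0.02 for DMSO replicate 1 and lay between -0.02 and 0.02 in all 6 libraries. As a share of all recovered reads, which does not use the authors' scaling, the groups did overlap. The 76 subunits held 0.549%, 0.524% and 0.523% of these reads in DMSO and 0.526%, 0.533% and 0.540% in Nutlin-3 (replicates 1 to 3). This share weighs each gene by its reads. Without DMSO replicate 1, 34 members rose instead of 28, and without Nutlin-3 replicate 2, 18 rose.

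**Figure D2:**
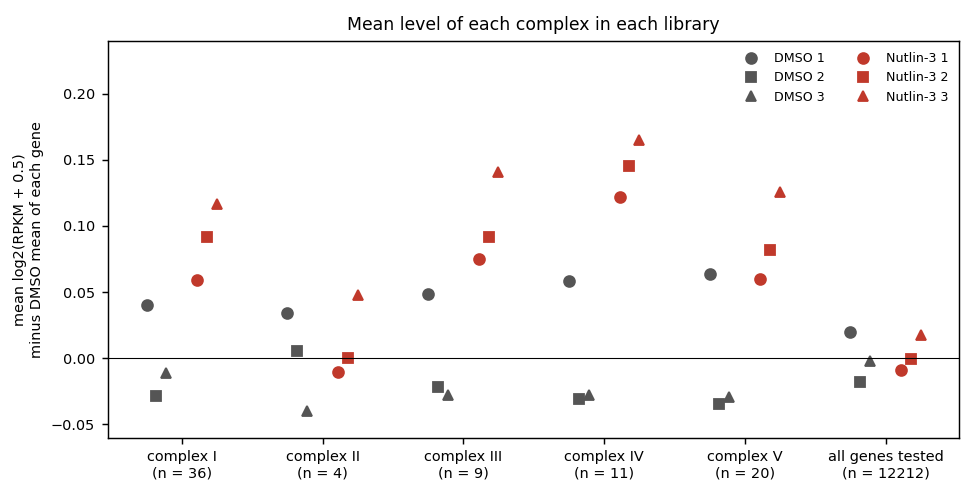
Mean of the members of each complex and of all genes tested in each library (y axis, log2(RPKM + 0.5) minus the DMSO mean of each gene). Grey symbols are DMSO and red symbols Nutlin-3 libraries, with shapes for replicates 1 to 3. In complex IV the Nutlin-3 libraries lie between 0.12 and 0.17, above every DMSO library, whereas DMSO replicate 1 lies above Nutlin-3 replicate 1 in complex V.

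The deposited RPKM were computed with the whole span of a gene, introns included, so genes with long introns have low values. To set genes side by side, RPKM were rescaled by span over the length of the principal transcript in GENCODE 29, which gives a rough level per length of mRNA. On this scale ATP5F1B, the catalytic beta subunit of the F1 head, was the highest member in DMSO at 259, followed by ATP5MF, a small subunit of the membrane part, at 249.3, and COX4I1 at 144. The median level was 33.3 in complex I, 34.1 in complex II, 38.6 in complex III, 59.3 in complex IV and 62.3 in complex V. Low members included ATP5MGL at 4.36, SDHC at 5.74, NDUFA9, an accessory subunit that steadies the junction of the arms, at 6.49, and NDUFV3 at 7.34. The scale takes the longest principal transcript, 13566 bases for SDHC and 8363 for NDUFA9, so these levels depend on that length. NDUFA9 had 1824 reads a library on average, beside a median of 1865 over the members. Reads recovered for a member in 1 library ranged from 104 in ATP5MGL to 20668 in ATP5F1B, and the median coefficient of variation was 4.64% in DMSO and 2.97% in Nutlin-3.

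The minimum removed 9 of the 89 genes. NDUFA12 averaged 0.314 RPKM, NDUFS4, a subunit near the NADH-oxidising tip, 0.253 and COX6B2, a testis form, 0.155. The members just above the minimum were NDUFA10 at 0.564, NDUFC1 at 0.625 and COX7A2L at 0.688. NDUFA12 and NDUFS4 still had 1133 and 1048 reads a library on average, and limma voom on the recovered reads gave log2 fold changes of -0.01 (adjusted p = 0.840) and -0.04 (adjusted p = 0.591). COX4I2, COX6A2, COX7A1 and COX7B2, forms known from lung, heart, muscle and testis, were listed at 0 in every library, and COX8C, another testis form, was at 0 in 5 of 6. NDUFA4L2, a hypoxia-induced relative of NDUFA4, averaged 0.0679 RPKM on a mean of 13.7 reads, with a log2 fold change of -0.77 by limma voom on recovered reads (adjusted p = 0.0489).

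Complex I, the entry point for NADH, had 15 rises (41.7%) and 1 fall (2.78%) among its 36 members, beside 29.1% and 22.5% of all genes tested. Its median log2 change was 0.09. Leaving out 1 library at a time gave 10 to 15 rises. The rises came from every naming class: 6 of 12 NDUFA, 2 of 11 NDUFB, 2 of 3 NDUFC and 5 of 10 NDUFS and NDUFV genes. The 2 NDUFC rises were NDUFC2 and its readthrough gene NDUFC2-KCTD14, with 1681 and 1713 reads a library on average. All exon length of the readthrough gene is shared with NDUFC2 and KCTD14, so the 2 rises cannot be taken as separate. Without the readthrough gene, 14 of 35 members rose and 1 fell. NDUFA4 carries a complex I name but is known as a subunit of complex IV, and with only NDUFA4 left out 14 of 35 members rose. Its RPKM were 8.90, 8.30 and 8.43 in DMSO and 10.7, 10.52 and 10.8 in Nutlin-3. Every Nutlin-3 library was above every DMSO library, and NDUFA4 rose 1.25-fold (8.55 ± 0.317 to 10.7 ± 0.164, SD, n = 3 each; log2 fold change 0.31 ± 0.03 SE, limma adjusted p = 0.00107).

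NDUFA13, an accessory subunit also known as GRIM-19, was at 2.85, 2.77 and 2.77 RPKM in DMSO and at 3.49, 3.40 and 3.51 in Nutlin-3. The groups were far apart for their spread, and NDUFA13 rose 1.24-fold (log2 fold change 0.27 ± 0.02 SE, adjusted p = 0.000546 by limma). Of its exon length, 21.0% is shared on the same strand with another annotated gene, YJEFN3, and a readthrough gene, whose reads cannot be split from it here. NDUFS8, a core subunit that carries iron-sulfur clusters, was at 7.81, 7.83 and 7.64 RPKM in DMSO and at 8.64, 9.62 and 9.47 in Nutlin-3. Its groups did not overlap and it rose 1.19-fold (log2 fold change 0.24 ± 0.05 SE, adjusted p = 0.00788 by limma).

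NDUFA6, an accessory subunit of the peripheral arm, was the only member of complex I that fell. Its RPKM were 6.64, 6.09 and 6.01 in DMSO and 5.40, 5.35 and 5.69 in Nutlin-3, without overlap. The Nutlin-3 mean was 87.8% of the DMSO mean (log2 fold change -0.17 ± 0.05 SE, adjusted p = 0.0262 by limma). This call was lost without Nutlin-3 replicate 1, where 0 members of complex I fell, and without Nutlin-3 replicate 2, where again 0 fell, while 2 fell without DMSO replicate 3.

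Core subunits of complex I were also read by module, in lists drawn after the values were seen. In the module that passes electrons to ubiquinone, NDUFS7 rose 1.21-fold beside the 1.19-fold of NDUFS8, and NDUFS3 had a log2 fold change of -0.00. Of the 3 core subunits of the NADH-oxidising module, none passed the test by limma. NDUFV1, which binds NADH, had a log2 fold change of 0.03 (adjusted p = 0.636), NDUFS1, its partner with iron-sulfur clusters, -0.04 (adjusted p = 0.438), and NDUFV2 -0.10 (adjusted p = 0.0641). By limma voom on recovered reads NDUFV2 was called lower (log2 fold change -0.13, adjusted p = 0.0183). NDUFV2 was the third member whose Nutlin-3 libraries were all below its DMSO libraries. Whether the modules differ was not tested.

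**Figure D3:**
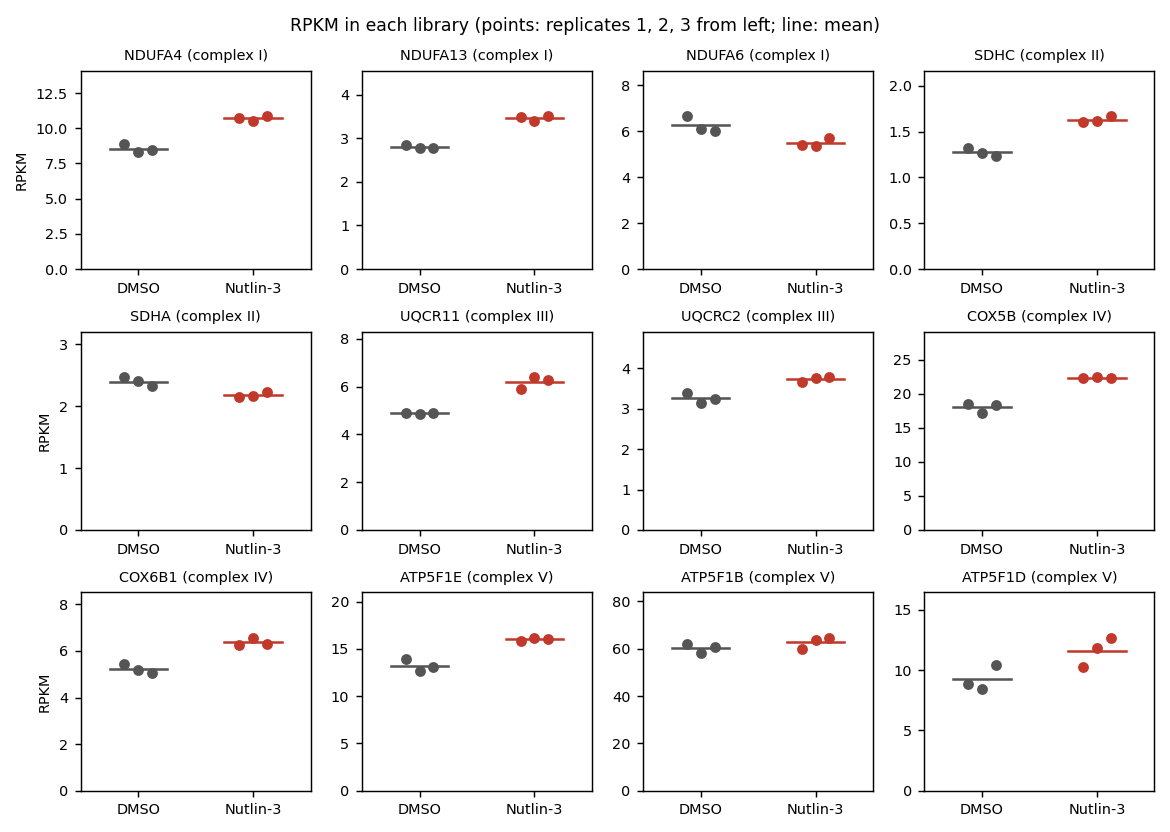
RPKM (y axis, from 0) of 12 members in each DMSO (grey) and Nutlin-3 (red) library, replicates 1 to 3 from left to right, with a line at each mean. NDUFA4, NDUFA13, SDHC, UQCR11, UQCRC2, COX5B, COX6B1 and ATP5F1E are higher in every Nutlin-3 library, NDUFA6 and SDHA lower in every one, and the groups of ATP5F1B and ATP5F1D overlap.

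Complex II, succinate dehydrogenase, also belongs to the citric acid cycle and is the one complex with no subunit from the mitochondrial genome. Its 4 genes did not move together: SDHC rose, SDHA fell, and SDHB and SDHD were not called. SDHC, a membrane anchor that holds the haem, was at 1.32, 1.27 and 1.23 RPKM in DMSO and at 1.60, 1.62 and 1.67 in Nutlin-3. It rose 1.28-fold, the largest ratio of means among the called members (log2 fold change 0.26 ± 0.03 SE, adjusted p = 0.00103 by limma). SDHB, the iron-sulfur subunit, stood at 1.56 ± 0.0301 RPKM in DMSO and 1.56 ± 0.0415 in Nutlin-3 (SD, n = 3 each), with a 95% interval of -0.07 to 0.06 for its log2 fold change. SDHD, the other anchor, was at 1.33, 1.32 and 1.205 RPKM in DMSO and 1.097, 1.16 and 1.24 in Nutlin-3, with overlapping groups and a log2 fold change of -0.10 (adjusted p = 0.121 by limma; adjusted p = 0.0334 by limma voom on recovered reads). The median log2 fold change of the 4 genes was -0.05 while the mean over the Nutlin-3 libraries was 0.01 above DMSO.

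SDHA, the flavoprotein that oxidises succinate, was at 2.47, 2.40 and 2.32 RPKM in DMSO and at 2.15, 2.16 and 2.22 in Nutlin-3. The groups did not overlap and the Nutlin-3 mean was 91.0% of the DMSO mean (log2 fold change -0.11 ± 0.03 SE, adjusted p = 0.0210 by limma). Without DMSO replicate 2, Nutlin-3 replicate 1 or Nutlin-3 replicate 2 the call was lost, and 0 members of complex II fell. SDHA has 4 pseudogenes in the table, SDHAP1 to SDHAP4, whose reads together came to 122% of those of SDHA itself, and reads that match both cannot be assigned with certainty. SDHAP4 was at 0.647, 0.604 and 0.592 RPKM in DMSO and at 0.485, 0.446 and 0.468 in Nutlin-3, a fall to 75.9% (adjusted p = 0.00373 by limma). SDHAP1 fell to 83.1% (adjusted p = 0.00804) and SDHAP2 to 85.7% (adjusted p = 0.0330), while SDHAP3 had a log2 fold change of -0.08 (adjusted p = 0.102). With the reads of annotated copies pooled with those of each gene, limma voom called the sum lower (log2 fold change -0.21, beside -0.14 for SDHA alone). Since the copies held more reads than SDHA and were lower themselves, the pooled fit cannot show whether SDHA itself fell.

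**Figure D4:**
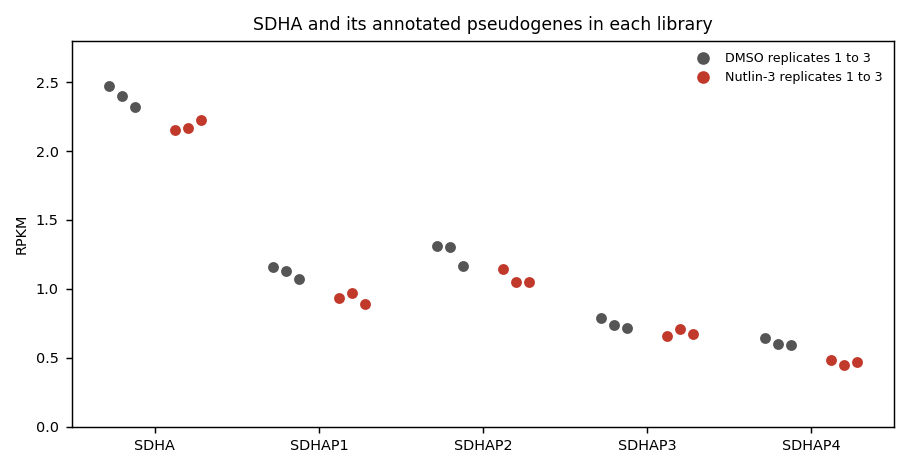
RPKM (y axis, from 0) of SDHA and its 4 annotated pseudogenes in each library, DMSO in grey and Nutlin-3 in red. In SDHA, SDHAP1, SDHAP2, SDHAP3 and SDHAP4 every Nutlin-3 library lies below every DMSO library.

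Complex III, which hands electrons from ubiquinol to cytochrome c, had 3 rises (33.3%) and 0 falls among its 9 members, a share of rises near the 29.1% of all genes tested, and the median log2 change was 0.09. UQCR11, its smallest accessory subunit, was at 4.91, 4.84 and 4.88 RPKM in DMSO and at 5.90, 6.39 and 6.27 in Nutlin-3. The DMSO libraries lay close together and all Nutlin-3 libraries were above them, and UQCR11 rose 1.27-fold (log2 fold change 0.31 ± 0.03 SE, adjusted p = 0.00102 by limma), the largest log2 change among the members. UQCRC2, a core protein, was at 3.39, 3.14 and 3.24 RPKM in DMSO and 3.66, 3.77 and 3.78 in Nutlin-3, and rose 1.15-fold (adjusted p = 0.00744 by limma). UQCRB, a ubiquinone-binding subunit, rose 1.11-fold (12.4 ± 0.274 to 13.9 ± 0.0922 RPKM, SD, n = 3 each, adjusted p = 0.00617 by limma).

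The catalytic Rieske protein UQCRFS1 was not called and stood at 8.28 ± 0.447 RPKM in DMSO and 8.36 ± 0.225 in Nutlin-3. UQCRC1, the partner core protein of UQCRC2, had a log2 fold change of 0.02 (95% interval -0.07 to 0.12). UQCRH, the hinge protein at the cytochrome c docking site, had -0.00 (95% interval -0.11 to 0.11), and its intronless copy UQCRHL had 0.07 (adjusted p = 0.555). UQCRHL and UQCRH are near-identical, so reads may have been split between them. CYC1, the cytochrome c1 subunit that the symbol rule leaves out, was at 23.0, 20.3 and 21.5 RPKM in DMSO and 17.7, 20.4 and 20.1 in Nutlin-3, with overlapping groups (adjusted p = 0.133).

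Complex IV, cytochrome c oxidase, had the largest share of calls, with 7 rises (63.6%, beside 29.1% of all genes tested) and 0 falls among 11 members, and the median log2 change was 0.13. COX5B, a subunit on the matrix side, was at 18.6, 17.2 and 18.3 RPKM in DMSO and at 22.4, 22.4 and 22.4 in Nutlin-3. All 3 Nutlin-3 libraries were above all DMSO libraries, with an SD of 0.0363 RPKM, and COX5B rose 1.24-fold (log2 fold change 0.31 ± 0.04 SE, adjusted p = 0.00117 by limma). COX6B1, which bridges the oxidase dimer on the side of cytochrome c, was at 5.42, 5.16 and 5.06 RPKM in DMSO and at 6.27, 6.55 and 6.32 in Nutlin-3. It rose 1.22-fold without overlap (log2 fold change 0.27 ± 0.03 SE, adjusted p = 0.00183 by limma).

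The other risers of complex IV were smaller in effect or less stable. COX7C, a small membrane subunit, was at 28.2, 25.4 and 27.3 RPKM in DMSO and 30.1, 32.4 and 31.2 in Nutlin-3, a rise of 1.16-fold (adjusted p = 0.0168 by limma) that was not called without Nutlin-3 replicate 2. COX6C, another membrane subunit, kept its call under all 15 alternatives (log2 fold change 0.18). COX6A1, the widespread form of its subunit, had a log2 fold change of 0.19 (adjusted p = 0.0299), COX4I1, the subunit that binds ATP as a regulator, 0.12 (adjusted p = 0.0219), and COX7A2L, a factor that joins complexes III and IV, 0.09 (adjusted p = 0.0373). All 3 lost the call without DMSO replicates 2 or 3 or Nutlin-3 replicates 2 or 3, each left out alone, and COX7A2L also without Nutlin-3 replicate 1. The number of rises in complex IV was 4 without DMSO replicate 2, DMSO replicate 3 or Nutlin-3 replicate 3 and 3 without Nutlin-3 replicate 2. An annotated copy, COX6A1P2, held 19.8% as many reads as COX6A1.

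COX5A, a subunit on the matrix side, and COX8A were not called. COX5A had a log2 fold change of -0.03 (95% interval -0.13 to 0.08) and COX8A, a small membrane subunit, 0.04 (95% interval -0.12 to 0.19). Of the exon length of COX8A, 34.5% is shared with a readthrough gene on the same strand. COX7A2 had 0.13 (adjusted p = 0.0639), with every Nutlin-3 library above every DMSO library. With NDUFA4 counted here, 8 of 12 genes of complex IV rose.

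Complex V, the ATP synthase, had few calls: 2 of 20 members rose (10.0%) and 0 fell, beside 29.1% and 22.5% of all genes tested. The median log2 change was 0.08, and 17 of 20 were above 0, beside 54.1% of all genes tested. ATP5F1E, the epsilon subunit of the rotor stalk, was at 13.9, 12.7 and 13.1 RPKM in DMSO and at 15.9, 16.1 and 16.1 in Nutlin-3. Its groups did not overlap and it rose 1.21-fold (log2 fold change 0.27 ± 0.04 SE, adjusted p = 0.00280 by limma). ATP5PD, subunit d of the peripheral stalk, was at 8.17, 7.62 and 7.62 RPKM in DMSO and 8.55, 8.63 and 8.71 in Nutlin-3, a rise of 1.11-fold (adjusted p = 0.0215). The ATP5PD call was lost without DMSO replicate 2 or 3 or Nutlin-3 replicate 2 or 3, each left out alone.

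ATP5F1D, the delta subunit of the same stalk as epsilon, had a ratio of means as large as that of NDUFA4 but a wider spread. It was at 8.89, 8.48 and 10.4 RPKM in DMSO and at 10.3, 11.8 and 12.7 in Nutlin-3, so DMSO replicate 3 was above Nutlin-3 replicate 1. The ratio of means was 1.25 (log2 fold change 0.31, 95% interval 0.05 to 0.57, adjusted p = 0.0518 by limma, adjusted p = 0.00192 by limma voom on recovered reads).

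The catalytic core was not called. ATP5F1B was at 62.0, 58.3 and 60.8 RPKM in DMSO and 59.9, 63.6 and 64.5 in Nutlin-3 (ratio of means 1.04, 95% interval of the log2 fold change -0.05 to 0.15). ATP5F1A, the alpha subunit, had a log2 fold change of 0.09 (adjusted p = 0.110), and its Nutlin-3 libraries were all above its DMSO libraries. ATP5IF1, which inhibits the enzyme when it runs in reverse, had -0.01 (95% interval -0.11 to 0.09). None of the 10 ATP5M genes, most of them in the membrane part, passed the test. Without DMSO replicate 1, the highest DMSO library over the members, 6 members of complex V rose, and without DMSO replicate 2, Nutlin-3 replicate 2 or Nutlin-3 replicate 3 only 1 did.

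Ratios between genes for alternative forms of 1 subunit overlapped between the groups. They were taken from RPKM made with gene spans, so they compare the groups and do not rank the forms. Per length of mRNA in DMSO, ATP5MC2 stood at 58.0 and ATP5MC3 at 17.7, and UQCRHL at 17.5 and UQCRH at 127. ATP5MC1, ATP5MC2 and ATP5MC3 encode the same mature ring subunit c, and the log2 ratio of ATP5MC1 to ATP5MC3 was 0.17 ± 0.07 in DMSO and 0.09 ± 0.04 in Nutlin-3 (SD, n = 3 each). That of ATP5MC2 to ATP5MC3 was -2.00 ± 0.06 and -1.99 ± 0.01. The ratio of COX7A2L to COX7A2 was -2.39 ± 0.05 and -2.43 ± 0.01, and that of UQCRHL to UQCRH was 1.51 ± 0.08 and 1.58 ± 0.12. Over these 4 ratios the 2-sided exact permutation test gave p from 0.20 to 0.90 (adjusted 0.667 to 0.90), where the smallest p that 3 against 3 allow is 0.10, so the test could not have passed 0.05.

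Of the 30 called members, 17 kept their call in all alternatives tested, and all 17 were rises. They were NDUFA4, NDUFA13, NDUFS8, NDUFA3, NDUFS7, NDUFA1, NDUFA11, NDUFB2 and NDUFB8 of complex I, SDHC, all 3 risers of complex III, COX5B, COX6B1 and COX6C of complex IV, and ATP5F1E. Both falls were lost under some alternatives. Annotated copies were found for 48 of the 80 members, 37 of them with a copy above 0, and in 4 members the copies held at least 10% as many reads as the gene. At least 20% of the exon length is shared with another gene on the same strand in 7 members and on the opposite strand in 9, among them NDUFS7, NDUFA1, NDUFB2 and ATP5F1E; whether the authors counted by strand is not given in the sources used here.

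Other genes of the same pathway did not follow the subunits in one direction. All 13 mRNAs of the mitochondrial genome, which encode subunits of complexes I, III, IV and V, were tested. Of these 13, 10 rose and 0 fell, beside 29.1% and 22.5% of all genes tested, and the median log2 change was 0.21. MT-CO1, the catalytic subunit of complex IV, rose 1.24-fold (adjusted p = 0.00106 by limma) and MT-ND6, the only one made from the opposite strand, had a log2 fold change of -0.27 (adjusted p = 0.0780). None of the 13 rose with no filter on low values. Under quantile normalization 1 rose, 2 fell and the median log2 change was -0.00, and 1 fell under median-of-ratios scaling and by voom on recovered reads.

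The carriers that feed ATP synthase split by isoform. The adenine nucleotide translocases exchange ADP for ATP across the inner membrane: SLC25A4 (ANT1) rose 1.29-fold and SLC25A6 (ANT3) 1.24-fold, whereas SLC25A5 (ANT2) fell to 70.8% of DMSO. SLC25A5 was at 75.4, 68.2 and 70.4 RPKM in DMSO and at 48.9, 51.1 and 51.5 in Nutlin-3, without overlap (log2 fold change -0.49 ± 0.05 SE, adjusted p = 0.000568 by limma). VDAC3, a pore of the outer membrane, fell to 81.1%. In all, 4 of 7 tested carriers and pores rose and 2 fell, beside 29.1% and 22.5% of all genes tested.

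Counts among the genes for making the complexes are to be read beside the 29.1% that rose and 22.5% that fell among all genes tested, and no list was tested against them. Of 68 tested mitochondrial ribosomal protein genes, which serve the translation of the mitochondrial mRNAs, 2 rose and 17 fell (median -0.06), and 28 fell under median-of-ratios scaling. MRPS6 fell to 78.7% and MRPL18 to 81.7%, whereas MRPL41 rose 1.31-fold and MRPL28 1.12-fold. Rises among them numbered 0 without Nutlin-3 replicate 2 and 1 without Nutlin-3 replicate 3. Of 14 tested genes of mitochondrial DNA expression 0 rose and 5 fell, among them TFAM, which packs and transcribes the mitochondrial genome, to 65.3% (4.22 ± 0.293 to 2.75 ± 0.147 RPKM, SD, n = 3 each, adjusted p = 0.000934 by limma), and MTERF3 to 70.5%; without DMSO replicate 3, 3 fell. Of 23 genes of protein import 3 rose and 7 fell, with TIMM10 at 69.7% and TOMM40, the pore of the outer membrane, at 72.7% of DMSO, and TOMM7 and TIMM10B at 1.18- and 1.17-fold.

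Assembly factors had calls in both directions. For complex I, 2 of 13 rose and 5 fell: NDUFAF8 rose 1.57-fold and NDUFAF3 1.27-fold, while FOXRED1 fell to 62.5% and COA1 to 75.2%. Without DMSO replicate 1 or 2 or Nutlin-3 replicate 1 or 3, 3 fell. For complexes II, III and V, 1 of 10 rose (UQCC1, 1.14-fold, not called without Nutlin-3 replicate 2 or 3) and 3 fell, among them BCS1L, which inserts the Rieske protein, to 81.9% and UQCC3 to 81.3%; without Nutlin-3 replicate 2, 1 fell. For complex IV, 4 of 22 rose and 5 fell, with HIGD2A at 1.22- and SCO2, a copper chaperone and known p53 target, at 1.25-fold, and CMC2 at 71.4% and PET100 at 82.6%. There 7 rose without DMSO replicate 1 and 2 without Nutlin-3 replicate 2, and 2 fell without DMSO replicate 1 and 3 without DMSO replicate 2, DMSO replicate 3 or Nutlin-3 replicate 3.

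Of 15 genes of the citric acid cycle and pyruvate dehydrogenase, which supply NADH and succinate, 4 rose and 4 fell, shares near the 29.1% and 22.5% of all genes tested. PDHB and MDH2 rose 1.22-fold each, FH fell to 84.0% and CS to 88.8%. The falls numbered 2 without DMSO replicate 1 or 2 or any 1 of the Nutlin-3 replicates. Of 9 tested regulators of mitochondrial gene expression 2 rose (TFE3, 1.22-fold, and ESRRA, 1.17-fold) and 5 fell, among them HCFC1 to 79.7% and PPRC1, a relative of PGC-1alpha, to 82.4%; 3 fell without DMSO replicate 2 or 3 or Nutlin-3 replicate 1 or 3. PPARGC1A, which encodes PGC-1alpha, stood between 0.00841 and 0.0116 RPKM in all libraries, and NRF1, below the minimum, was not tested in the main comparison. Of 4 subunits outside the symbol rule 0 rose and 1 fell, CYCS, the cytochrome c gene, to 89.1% (adjusted p = 0.0334), a call lost without any 1 of the Nutlin-3 replicates.

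**Figure D5:**
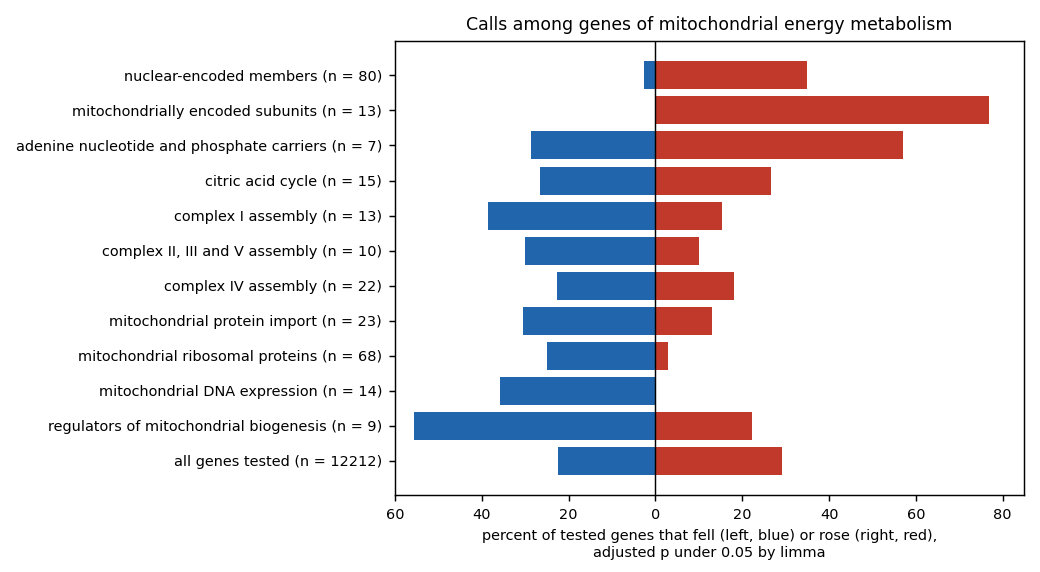
Percent of tested genes that rose (right, red) or fell (left, blue) after Nutlin-3 in the members, in related gene lists and among all genes tested, by limma at an adjusted p under 0.05, with the number tested in parentheses. Of the members 35.0% rose and 2.50% fell, and of all genes tested 29.1% rose and 22.5% fell.

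The groups also differed in p53 targets and in proliferation. All 7 p53 response genes rose, with CDKN1A, the cell cycle inhibitor p21, 7.24-fold and MDM2 3.66-fold higher, and all 6 proliferation genes fell, with MKI67 at 27.3% of DMSO. Summed RPKM of the proliferation genes ran from 114 to 127 in DMSO and from 34.0 to 37.6 in Nutlin-3, and their part in the changes of the members was not tested. Of 8 epithelial markers of the line 7 were tested, with 4 rises and 1 fall, KRT18 and KRT8 at 1.74- and 1.68-fold among the rises. The fall was OTX2, a transcription factor of pigment epithelium, to 81.9% of DMSO (3.18 ± 0.240 to 2.60 ± 0.174 RPKM, SD, n = 3 each, adjusted p = 0.0233 by limma), and the falls numbered 0 without DMSO replicate 1 or 2 or Nutlin-3 replicate 1 or 3. Of 9 genes of differentiated pigment epithelium 1, RDH5, a retinol dehydrogenase of the visual cycle, reached the minimum and rose 1.58-fold (adjusted p = 0.000259 by limma), and RPE65 was at or below 0.00318 RPKM in every library. Of 6 fibroblast genes 2 were tested and both rose, COL1A1 1.65-fold and THY1 1.33-fold, while COL1A2, DCN and LUM stood at or near 0, at most 0.00458, 0.0134 and 0.0206 RPKM in any library. The summed level of the 6 ran from 46.3 to 46.6 RPKM in DMSO and from 62.3 to 63.6 in Nutlin-3. Most of that sum was THY1, with means of 43.4 and 57.8, and its part in the changes of the members was not tested. No marker of blood, endothelial or neural cells reached the minimum.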

How the data were processed

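RPKM for 57773 gene IDs in 6 libraries were made and deposited by the authors. Tools named in the submitters' processing notes are TopHat2, CASAVA 1.8.2 and edgeR, with build hg19. The counter, annotation and strand setting remain not given in the sources used here. Low RPKM values times the GENCODE 29 gene span were whole reads within 0.01 of a read in 91.0% of cases, against 33.1% with merged exon length, so RPKM were made with the span. The authors' scaling sizes recovered this way were 29.8 to 42.3 M reads, 1 read in 10 kb being 0.00237 to 0.00336 RPKM. Reads summed over genes were 42.0, 29.1 and 32.1 M in DMSO, below sizes of 42.3, 29.8 and 32.4 M. In Nutlin-3 they were 33.0, 37.8 and 32.3 M, above sizes of 31.6, 35.8 and 30.4 M. Whether the sizes hold a normalization factor is not given, and limma voom used them as they are. The 12212 genes that averaged 0.5 RPKM or more were fitted in limma 3.58.1 (R 4.3.3) as log2(RPKM + 0.5), by group alone, with a trend of variance on mean. P-values were adjusted by Benjamini-Hochberg over all of them and called under 0.05. Folds and percentages of DMSO are ratios of mean RPKM, and log2 values understate the change of low genes. The test was run on simulated data first. Symbols came from a separate list of gene names and, where that had none, from GENCODE 29. Gene types and spans came from GENCODE 29, whose build differs from the authors', so gene coordinates are given only for RefSeq promoters.

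Named members are the up to 3 largest rises and falls per complex among called members without overlap, subunits of set roles, isoform pairs and the members nearest the minimum. For other lists the up to 2 largest rises and falls are named. Modules of complex I, NDUFS7, NDUFS3, NDUFV2, NDUFA9, NDUFV3, ATP5MF, COX6C, ATP5F1D, CYC1, MT-ND6 and the 17 stable rises were named after their values were seen. Members and lists were chosen with earlier results of these data known. Alternatives were other pseudocounts, filters and scalings, limma voom on recovered reads, a replicate block, each library left out and, added after seeing the data, reads pooled with annotated copies. 1 member is counted but not reported here by name.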

Additional observations from a re-analysis of the deposited data

How the results depend on the processing

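Under 15 alternatives the median log2 fold change of the members stayed between 0.06 and 0.12, beside 0.09 as reported. Rises (28) numbered 18 to 34 over the fits that leave out 1 library. Of the 28, 18 to 28 were still called there. Falls (2) numbered 1 with no filter and 4 both with voom on recovered reads and with copies pooled, and ran from 0 to 3 with 1 library left out. In complex I falls (1) numbered 0 with no filter, 2 with median-of-ratios scaling, voom or copies pooled, and 0 to 2 with 1 library left out. In complex II falls (1) numbered 2 with voom or copies pooled and 0 to 1 with 1 library left out. In complex IV rises (7) numbered 3 to 8 with 1 library left out. In complex V rises (2) numbered 5 under quantile normalization, 6 with voom or copies pooled, and 1 to 6 with 1 library left out. Replicate numbers did not pair the libraries: deviations of same-numbered libraries correlated at -0.02, 0.01 and 0.02. With the replicate number as a block, 19 of the 28 rises and 0 falls remained, 0 in complex I and 0 in complex II, and 3 rises remained in complex IV. Among the named members and the ratios, directions turned only in values that were not called. Under quantile normalization log2 fold changes were -0.05685 in ATP5F1B, -0.07237 in COX8A, -0.03991 in NDUFV1, 0.00992 in SDHB, -0.02791 in UQCRC1 and -0.02859 in UQCRFS1. Under median-of-ratios scaling they were -0.00723 in UQCRC1 and -0.01526 in UQCRFS1. With 1 library left out they ran from -0.03362 to 0.01673 in ATP5IF1, -0.06404 to 0.03937 in ATP5MC1, -0.01174 to 0.08257 in COX8A, -0.01234 to 0.07054 in NDUFV1, -0.015 to 0.01408 in SDHB, -0.02515 to 0.04792 in UQCRFS1 and -0.0319 to 0.03934 in UQCRH, and UQCRHL reached -0.01268 at its lowest and 0.12233 at its highest. The change of the COX7A2L to COX7A2 log2 ratio was 0.00508 with a pseudocount of 0.1, 0.01695 under quantile normalization, 0.02367 with voom and 0.02347 with copies pooled. That of ATP5MC2 to ATP5MC3 was -0.00128 with a pseudocount of 1 and ran from -0.0276 to 0.03329 with 1 library left out. The cause was not tested.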
